A study of Mus musculus with 16 samples.

Results

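The 8 Hedgehog signalling genes Shh, Ptch1, Hhip, Smo, Gli1, Gli2, Gli3 and Foxa2 were followed in whole mouse embryos at embryonic day (E) 9.5. They were chosen by gene symbol from the 26411 genes of the count tables, and all 8 were counted in all 16 embryos and passed the expression filter. RNA-sequencing covered 4 embryos of each of 4 genotypes. These were Kat6a+/+Kat6b+/+ (the wild type), embryos that lack Kat6a (Kat6a-/-Kat6b+/+), embryos that carry the Kat6b transgene (Kat6a+/+Tg(Kat6b)) and embryos with both changes (Kat6a-/-Tg(Kat6b)). Kat6a and Kat6b encode related histone acetyltransferases. The Kat6a null allele lacks exons 5 to 9. Tg(Kat6b) is a bacterial artificial chromosome that carries Kat6b with its own flanking sequence and was inserted in multiple copies. It came from a germline founder, so that 1 line stands for the transgene. All embryos were of a FVB x BALB/c hybrid background. Each genotype held 2 female and 2 male embryos. Wild-type embryos shared litters with Kat6a-/-Kat6b+/+ and with Kat6a+/+Tg(Kat6b) embryos. The Kat6a-/-Tg(Kat6b) embryos came from 2 litters of which no other genotype was sequenced, so that genotype and litter cannot be told apart in any comparison with them. The comparisons asked what loss of Kat6a, extra Kat6b and both together did to mRNA levels.

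Hedgehog ligands are secreted proteins that pattern the ventral neural tube, somites, gut and limb buds of the early embryo. Ptch1, the receptor, holds the membrane protein Smo inactive until a ligand binds, after which Smo acts at the primary cilium on the Gli transcription factors. Gli2 and Gli3 relay the signal, Gli3 largely as a repressor where ligand is absent, whereas Gli1, Ptch1 and Hhip are themselves direct targets and are widely used as readouts of pathway activity. Foxa2, a forkhead factor of notochord, floor plate and endoderm, lies both upstream of Shh in the midline and downstream of it in the floor plate.

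Libraries held 14407277 to 45665680 counts on genes, with a median of 23042414. The 8 embryos with the transgene had Kat6b at 155 CPM or more and the 8 without it at 51.0 CPM or less (CPM are counts scaled to a common library size with the TMM factors of edgeR), so that the transgene was read in every embryo that should carry it. Kat6a counts, between 138 and 218 CPM in all embryos, are summed over the whole gene and cannot check the deletion. Markers of the neural tube, somite, limb bud, heart, endothelium, primitive blood, gut, notochord and floor plate were counted in every genotype. Of 7 markers of decidua and trophoblast, 2 were at 0 in all embryos, but 2 passed the expression filter. The decidua and trophoblast list summed to 15.8 to 21.6 RPKM over all embryos (RPKM are counts divided by gene length and library size), so that such tissue is not excluded. The library of Kat6a+/+Tg(Kat6b) replicate 1 stood apart by a trend with gene length. Each library was set against the mean of the other embryos of its genotype. In this one the median deviation of genes longer than 8000 bases minus that of genes shorter than 2000 bases was −0.41 on the log2 scale. It was −0.15 to 0.23 in the other 15 libraries, where the values of the other Kat6a+/+Tg(Kat6b) embryos depend on this library. The differences described for that genotype are therefore also given without this library.

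All 8 genes were matched to the GENCODE annotation of GRCm39. Shh lies on chromosome 5 (28661813 to 28672254, minus strand), and Foxa2 on chromosome 2 (147884797 to 147889005, minus strand). Ptch1 (63656142 to 63721412, minus strand) and Gli3 (15637809 to 15904611, plus strand) both lie on chromosome 13. Hhip lies on chromosome 8 (80692480 to 80784658, minus strand), Smo on chromosome 6 (29735407 to 29762532, plus strand), Gli1 on chromosome 10 (127165751 to 127177865, minus strand) and Gli2 on chromosome 1 (118761858 to 118982598, minus strand). The strand setting of the counting is not given in the sources used here, so reads from an overlapping gene on the other strand may be included. Such overlap covers 22.6% of the annotated exon bases of Shh, 7.34% of Gli1, 5.13% of Gli3, 3.31% of Hhip and 0.174% of Gli2, and none of Ptch1, Smo and Foxa2. On the same strand, Gm13717 overlaps 4.13% of the exon bases of Smo.

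Because Gli factors act through a known DNA element, promoter windows of 300 bases (250 before and 50 after each start; RefSeq, GRCm38.p6) were searched on both strands for the consensus Gli site GACCACCCA. Of the members, 6 had such windows, named by symbol, and Shh and Gli1 had no entry. An exact match stood in 0.253% of all 32851 windows and in none of the 8 windows of the members. The closest match in each gene's window is shown, 5′ to 3′ on the strand of the gene, with the 9 matched positions in capitals and 10 bases on either side. The windows are chr2:148045415-148045714 (minus strand) for Foxa2, chr8:80057959-80058258 (minus) for Hhip, chr1:119053570-119053869 (minus) for Gli2, chr6:29735247-29735546 (plus) for Smo, chr13:63565686-63565985 (minus) for Ptch1 and chr13:15463473-15463772 (plus) for Gli3.
Foxa2: tggggaggggTGGGAGGTCggctggcgag
Hhip: cgcagccggaGGCCACCCTgggccccggc
Gli2: ccagggtggtGTCCCCCCAcccccagcct
Smo: cctccgcggaTGGGGGGGCcgggcttggc
Ptch1: ggcgcgagcgGCGGGGGTCtgcgcgcgcc
Gli3: ggctcggcgcGTCCCCCCCagcgctcctc
The Foxa2 match, at 66 bases before the start, differed from the consensus at 1 position, and 6.74% of all windows held a match that close or closer. Those of Hhip, Gli2 and Smo differed at 2 positions, and 58.3% of all windows held a match that close or closer. Those of Ptch1 and Gli3 differed at 3 positions, with 99.4% of all windows as close or closer. The Foxa2, Smo and Ptch1 matches lie in the reverse orientation. The matches are descriptions of these letters, and the distal enhancers of these genes were not analysed here.

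Levels were compared between genes as RPKM, which divides the counts by the deposited gene length and by the library size. In wild-type embryos Smo was the highest at 76.8 ± 3.46 RPKM, followed by Ptch1 at 29.7 ± 0.964 RPKM (SD, n = 4 each). Gli3 at 20.6 ± 1.40 and Gli1 at 19.0 ± 2.28 RPKM came next and overlapped between embryos. Gli2 at 13.5 ± 0.802 and Shh at 13.02 ± 0.393 RPKM overlapped as well. Foxa2 at 4.07 ± 0.600 and Hhip at 1.51 ± 0.0967 RPKM were the lowest and did not overlap (SD, n = 4 each). The order was the same in Kat6a-/-Kat6b+/+ and Kat6a-/-Tg(Kat6b) embryos. In Kat6a+/+Tg(Kat6b) embryos the means of Gli1 and Gli3, and those of Shh and Gli2, changed places, but both pairs overlapped between embryos. In the plot of RPKM by embryo the genotypes lie close together for every gene.

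**Figure D1:**
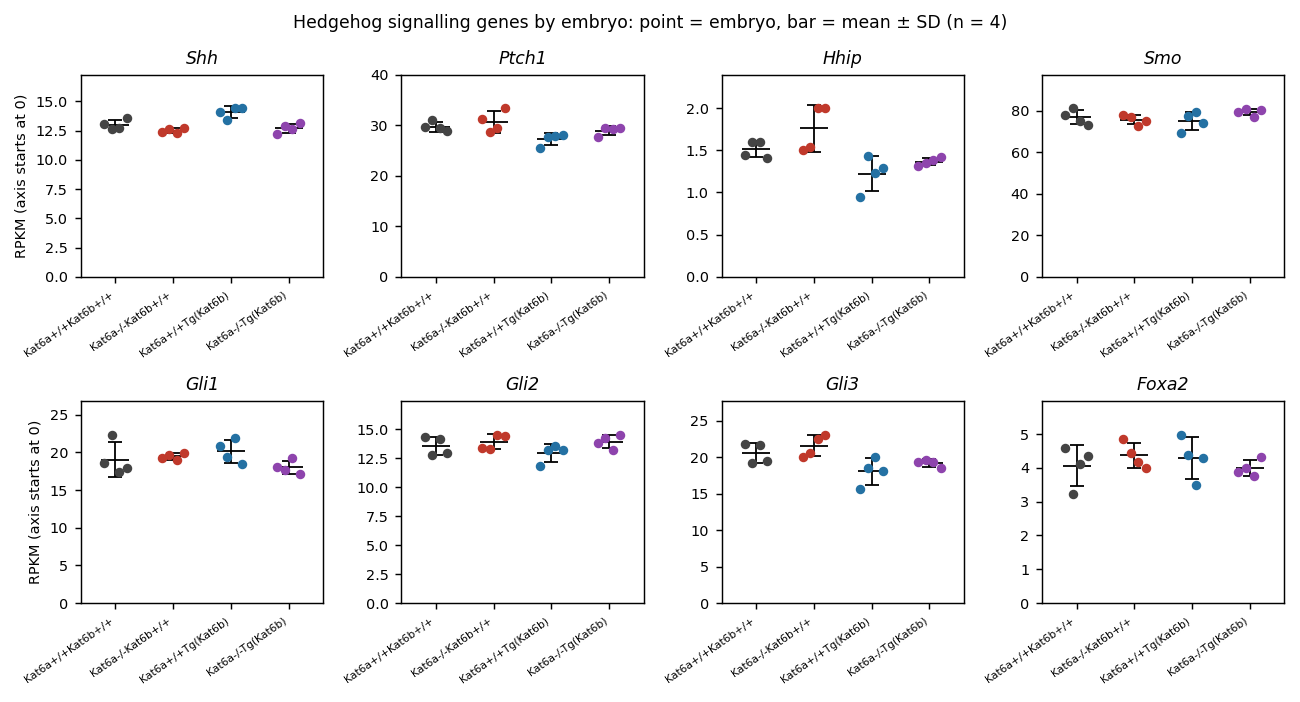
RPKM (vertical axis, from 0) of the 8 genes in each embryo (points, replicates 1 to 4 from left to right) of the 4 genotypes (horizontal axis), with the mean and SD of 4 embryos. Smo spans 69.3 to 81.2 RPKM over all 16 embryos and Hhip, the most variable, 0.946 to 2.00 RPKM.

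Shh, the ligand, varied little. It was at 13.1, 12.7, 12.8 and 13.5 RPKM in wild-type replicates 1 to 4 and at 12.4, 12.6, 12.3 and 12.7 RPKM in Kat6a-/-Kat6b+/+ embryos. In Kat6a+/+Tg(Kat6b) embryos it was at 14.1, 13.4, 14.4 and 14.4 RPKM, and in Kat6a-/-Tg(Kat6b) embryos at 12.2, 12.8, 12.6 and 13.1 RPKM. The Kat6a+/+Tg(Kat6b) embryos were the highest group and lay above all Kat6a-/-Tg(Kat6b) embryos, but 1 of them overlapped the wild type. The coefficient of variation within genotypes was 2.83% on average, lower than for all but 4.95% of the tested genes, whose median was 7.65%.

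Ptch1, the receptor and a target, was at 29.6, 31.1, 29.4 and 28.8 RPKM in wild-type replicates 1 to 4 and at 31.1, 28.6, 29.4 and 33.3 RPKM in Kat6a-/-Kat6b+/+ embryos. In Kat6a+/+Tg(Kat6b) embryos it was at 25.6, 27.6, 27.9 and 28.1 RPKM, and in Kat6a-/-Tg(Kat6b) embryos at 27.7, 29.3, 29.1 and 29.5 RPKM. The Kat6a+/+Tg(Kat6b) embryos were the lowest group and did not overlap the wild type. Hhip, a membrane protein that binds and sequesters the ligand, was at 1.45, 1.60, 1.59 and 1.41 RPKM in wild-type embryos. It was at 1.51, 1.54, 2.00 and 2.00 RPKM in Kat6a-/-Kat6b+/+, at 0.946, 1.43, 1.23 and 1.29 RPKM in Kat6a+/+Tg(Kat6b) and at 1.31, 1.35, 1.39 and 1.42 RPKM in Kat6a-/-Tg(Kat6b) embryos. All Kat6a-/-Kat6b+/+ embryos lay above all Kat6a-/-Tg(Kat6b) embryos, and the 2 highest values were both from males of 1 litter.

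Smo, the signal transducer, was at 77.9, 81.2, 75.0 and 73.2 RPKM in wild-type replicates 1 to 4 and at 77.7, 77.0, 72.7 and 75.1 RPKM in Kat6a-/-Kat6b+/+ embryos. It was at 69.3, 77.5, 79.2 and 73.9 RPKM in Kat6a+/+Tg(Kat6b) and at 79.2, 80.8, 77.1 and 80.3 RPKM in Kat6a-/-Tg(Kat6b) embryos. All genotypes overlapped the wild type, and the highest of the 16 values was 1.17 times the lowest.

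Among the transcription factors, Gli1 was at 18.6, 22.4, 17.3 and 17.9 RPKM in wild-type replicates 1 to 4 and at 19.3, 19.7, 19.0 and 19.9 RPKM in Kat6a-/-Kat6b+/+ embryos. It was at 20.9, 19.3, 22.0 and 18.5 RPKM in Kat6a+/+Tg(Kat6b) and at 18.02, 17.7, 19.2 and 17.2 RPKM in Kat6a-/-Tg(Kat6b) embryos. The last group was the lowest on average, but its highest embryo overlapped the lowest Kat6a+/+Tg(Kat6b) embryo. Gli2 spanned 12.8 to 14.3 RPKM in wild-type, 13.3 to 14.5 in Kat6a-/-Kat6b+/+, 11.9 to 13.6 in Kat6a+/+Tg(Kat6b) and 13.2 to 14.5 RPKM in Kat6a-/-Tg(Kat6b) embryos, so that all genotypes overlapped. Gli3 was at 21.8, 19.2, 21.7 and 19.5 RPKM in wild-type, at 20.04, 20.6, 22.5 and 23.1 RPKM in Kat6a-/-Kat6b+/+, at 15.6, 18.5, 19.97 and 18.04 RPKM in Kat6a+/+Tg(Kat6b) and at 19.2, 19.6, 19.4 and 18.5 RPKM in Kat6a-/-Tg(Kat6b) embryos. The 15.6 RPKM, the lowest of the 16 values, was from the library with the length trend, and the gene is 8427 bases long.

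Foxa2 had the widest spread within genotypes, with a mean coefficient of variation of 10.8%, against 10.5% for Hhip and 7.65% for the median tested gene. It was at 4.59, 3.22, 4.13 and 4.34 RPKM in wild-type, 4.86, 4.44, 4.16 and 4.01 RPKM in Kat6a-/-Kat6b+/+, 4.98, 4.39, 3.50 and 4.29 RPKM in Kat6a+/+Tg(Kat6b) and 3.87, 3.99, 3.77 and 4.31 RPKM in Kat6a-/-Tg(Kat6b) embryos. These levels rest on 138 to 465 counts per embryo, and no genotype stood apart. Of the endoderm that expresses Foxa2, gut markers summed to 58.8 to 76.3 RPKM in wild-type and 60.1 to 78.3 RPKM in Kat6a-/-Kat6b+/+ embryos. They summed to 62.1 to 78.4 RPKM in Kat6a+/+Tg(Kat6b) and 70.1 to 91.3 RPKM in Kat6a-/-Tg(Kat6b) embryos. Markers of visceral endoderm and yolk sac, which surround the embryo, varied more, from 3.61 to 31.5 RPKM over all embryos, and their part in the spread was not tested. In whole embryos a change in such a restricted gene cannot be assigned, since fewer cells of a type and less RNA per cell cannot be told apart.

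Differences were tested for all 15679 genes kept by the filter, with an edgeR quasi-likelihood model over all 16 embryos that included 2 surrogate variables. The edgeR FDR is its p-value after Benjamini-Hochberg adjustment across these genes, and 0.05 was the threshold. Over the 5 pairs of genotypes compared and the interaction, 1 of 48 tests of the 8 genes passed, and 15 of 48 had an unadjusted p under 0.05. No member passed in more than 1 comparison, and comparisons that share a genotype share its embryos.

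**Figure D2:**
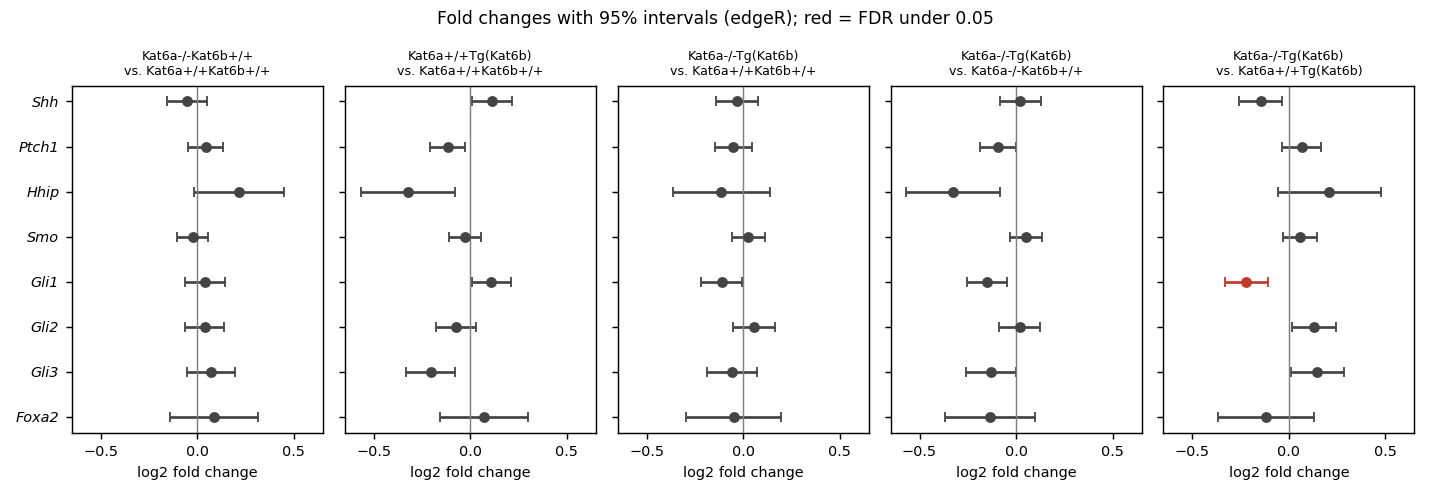
Log2 fold changes (points, horizontal axis) of the 8 genes with 95% intervals from edgeR (lines), 1 panel per comparison. Gli1 in Kat6a-/-Tg(Kat6b) vs. Kat6a+/+Tg(Kat6b), at −0.22, is the only point past an FDR of 0.05.

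Loss of Kat6a alone left the 8 genes within narrow bounds. Against the wild type, Kat6a-/-Kat6b+/+ embryos had none of the 8 past the threshold, while 1.88% of all genes were. None had an unadjusted p under 0.05 (15.2% of all genes), and none was without overlap between the groups (7.97% of all genes). The log2 fold changes ran from −0.05 for Shh to 0.21 for Hhip (standard error 0.112; edgeR FDR = 0.379). The targets Gli1 and Ptch1 were at log2 fold changes of 0.04 each, with 95% intervals of the fold change from 0.958 to 1.10 and from 0.968 to 1.10. Over all 8 genes, the intervals reached no lower than 0.897-fold (Shh) and no higher than 1.36-fold (Hhip). In the 2 litters shared by these genotypes, with 2 mutant embryos and 1 wild-type embryo per litter, 5 of the 8 genes had the same sign in both. The share of all genes with the same sign was not computed. In the first (litter 801) the mutant embryos were female and the wild-type embryo male, so that genotype and sex cannot be told apart there. In the second (litter 803) all were male. Hhip differed by 0.07 and 0.32 on the log2 scale and Foxa2 by 0.02 and 0.34. Shh differed by −0.07 and −0.02, Smo by −0.01 and −0.13, and Ptch1 by 0.01 in each. Gli1, Gli2 and Gli3 had opposite signs in the 2 litters.

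With the transgene alone, in Kat6a+/+Tg(Kat6b) embryos, none of the 8 genes passed against the wild type, where 0.14% of all genes did. Unadjusted p-values were under 0.05 for 5 of 8, against 11.5% of all genes, and only Ptch1 was without overlap between the groups, as were 4% of all genes. Gli3 was at a log2 fold change of −0.21 (standard error 0.0590; edgeR FDR = 0.187), Hhip at −0.32 (standard error 0.117; edgeR FDR = 0.257) and Ptch1 at −0.12 (standard error 0.0438; edgeR FDR = 0.275). Shh and Gli1 were at 0.11 each (edgeR FDR = 0.366 and 0.389). DESeq2 placed Gli3 just past the threshold (adjusted p = 0.04996), while the other alternatives left it at an adjusted p of 0.0502 or more.

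These differences ran in parallel with gene length. The 4 longest members, Gli2 (6708 bases), Ptch1 (7675), Gli3 (8427) and Hhip (9078), were lower, and the median of all genes longer than 8000 bases was −0.16 on the log2 scale, against 0.03 for genes under 2000 bases. With the length trend of each library removed, Gli3 was at −0.09, Hhip at −0.19 and Ptch1 at −0.02, whereas Gli1, of 3662 bases, stayed at 0.10. Without Kat6a+/+Tg(Kat6b) replicate 1 Gli3 was at −0.13, Hhip at −0.18, Ptch1 at −0.06, Gli1 at 0.14 and Shh at 0.11, and the 3 remaining embryos had Gli3 at 18.8 ± 1.01 RPKM (SD, n = 3). The plot of fold change against gene length shows the same shift in the other comparison with this genotype.

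**Figure D3:**
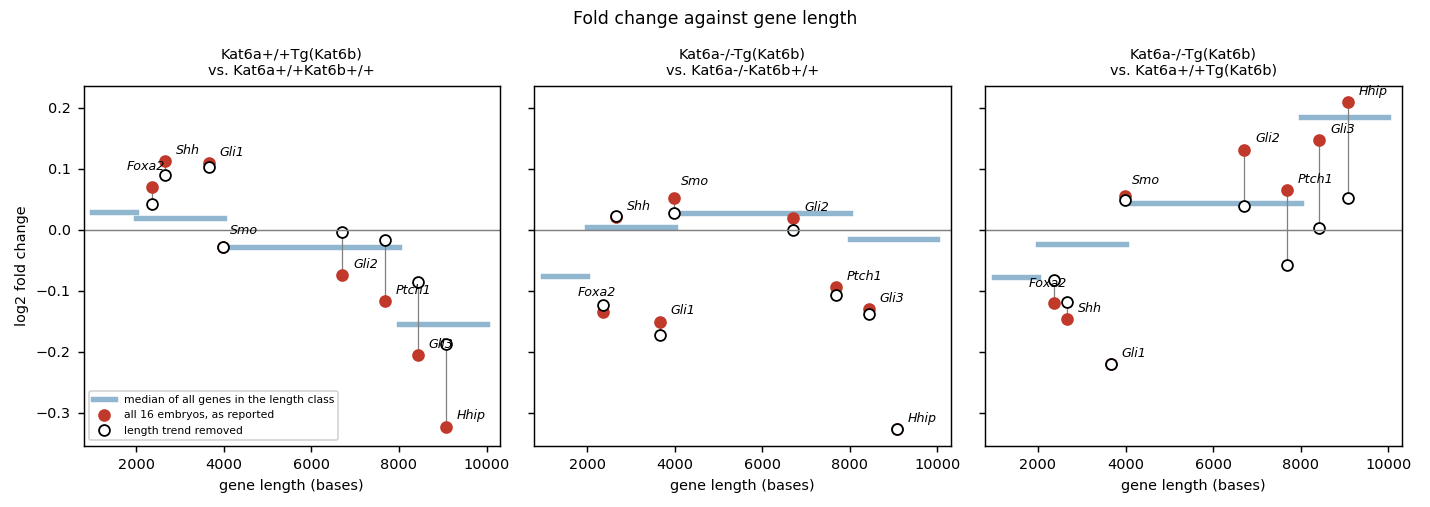
Log2 fold change (vertical axis) of the 8 genes against gene length in bases (horizontal axis) in 3 comparisons, as fitted over all 16 embryos (filled) and with each library's length trend removed (open). Blue bars are the median of all genes in 4 length classes, from 0.03 down to −0.16 in Kat6a+/+Tg(Kat6b) vs. Kat6a+/+Kat6b+/+, where Hhip, Gli3 and Ptch1 move towards 0 once the trend is removed.

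Embryos with both changes, Kat6a-/-Tg(Kat6b), were set against the wild type to ask how near to it the genes lay. None of the 8 passed the threshold, against 0.67% of all genes. Only Gli1 had an unadjusted p under 0.05 (12.7% of all genes), at a log2 fold change of −0.11 (standard error 0.0515; edgeR FDR = 0.376). The fold changes ran from −0.11 for Hhip to 0.06 for Gli2 on the log2 scale, and the 95% intervals lay between 0.777-fold (Hhip) and 1.15-fold (Foxa2). All 8 genes overlapped between the groups, whereas 7.1% of all genes did not.

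Adding the transgene to Kat6a-/- embryos was accompanied by lower values of several targets that did not pass the threshold. Between Kat6a-/-Tg(Kat6b) and Kat6a-/-Kat6b+/+ embryos 7.14% of all genes passed and none of the 8 did, although 4 of 8 had an unadjusted p under 0.05, against 23.2% of all genes. Hhip was at a log2 fold change of −0.33 (standard error 0.116; edgeR FDR = 0.0906), Gli1 at −0.15 (standard error 0.0504; edgeR FDR = 0.0707), Gli3 at −0.13 (edgeR FDR = 0.211) and Ptch1 at −0.09 (edgeR FDR = 0.210). Hhip and Gli3 did not overlap between the groups, as held for 15.2% of all genes. Shh, Smo and Gli2 were at 0.02, 0.05 and 0.02. With the length trend removed, Gli1 (−0.17, edgeR FDR = 0.0207), Gli3 (−0.14, edgeR FDR = 0.0113), Hhip (−0.33, edgeR FDR = 0.0301) and Ptch1 (−0.11, edgeR FDR = 0.0430) all passed, when 8.18% of all genes did. Without Kat6a+/+Tg(Kat6b) replicate 1, which is in neither group but enters the estimate of the spread, Gli3 (−0.14, edgeR FDR = 0.0340) and Hhip (−0.34, edgeR FDR = 0.0224) passed. Within sexes the difference of Hhip was −0.56 in the males and −0.13 in the females (2 embryos against 2). The Kat6a-/-Kat6b+/+ males and females came from different litters, so that sex and litter cannot be told apart in that split. Limb bud markers moved the other way in this comparison, 3 of 10 passing as higher and none as lower. Their summed level was 92.1 to 99.3 RPKM against 75.5 to 84.4 RPKM. Markers of visceral endoderm and yolk sac, none of whose 7 tested genes passed, summed to 22.4 to 30.2 against 8.62 to 11.9 RPKM. Of the other lists, 1 of 8 neural tube and 1 of 6 somite and sclerotome markers passed as lower, and 1 of 6 endothelium and 1 of 9 gut markers as higher. Of all genes, 3.74% passed as lower and 3.39% as higher. The part of these markers in the values of the members was not tested.

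Gli1 was lower in Kat6a-/-Tg(Kat6b) than in Kat6a+/+Tg(Kat6b) embryos. These carry the same transgene and differ in Kat6a and in litter, so that genotype and litter cannot be told apart. It was at 18.02 ± 0.859 RPKM against 20.2 ± 1.54 RPKM (SD, n = 4 each), a log2 fold change of −0.22 or 0.858-fold (95% interval 0.795 to 0.927; standard error 0.0535; edgeR FDR = 0.0287). In the same comparison 3.41% of all genes passed, and 1.14% of all genes passed as lower. The difference of mean log2 CPM was −0.12 in the females and −0.20 in the males, with 2 embryos against 2. The direction was the same in all 28 alternatives, but only 14 of them kept the gene past the threshold, with adjusted p from 0.0134 to 0.191. It was lost without surrogate variables (−0.17, edgeR FDR = 0.188) and with sex in their place (−0.16, edgeR FDR = 0.122). With replicate number as a block in place of the surrogate variables it was lost as well, both in a fit of all 16 embryos (−0.16, edgeR FDR = 0.191) and in one of these 8 embryos alone (−0.16, standard error 0.0456; edgeR FDR = 0.124). The sexes match by replicate number in this comparison, and same-numbered embryos deviated together though they came from different litters. Elsewhere, same-numbered embryos correlated over 0.1 only where their sexes matched. Between Kat6a-/-Kat6b+/+ and Kat6a-/-Tg(Kat6b) the correlations were 0.330 and 0.355 in same-sex pairs and −0.385 and −0.391 in the others. Pairing by number and a match of sex therefore cannot be told apart. The call was also lost when any 1 of the 4 Kat6a-/-Tg(Kat6b) embryos was left out (the highest edgeR FDR was 0.106, without replicate 1) and without Kat6a+/+Tg(Kat6b) replicate 3, Kat6a+/+Kat6b+/+ replicate 3 or Kat6a-/-Kat6b+/+ replicate 1. Without the library with the length trend it was −0.26 (edgeR FDR = 0.0331).

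The other 7 genes did not pass in this comparison, although 4 of the 8 had an unadjusted p under 0.05, against 18.9% of all genes. Shh was at −0.15 (standard error 0.0538; edgeR FDR = 0.136) and did not overlap between the groups, as held for 10.5% of all genes. Gli2 was at 0.13 and Gli3 at 0.15 (edgeR FDR = 0.188 and 0.229), where the median of genes longer than 8000 bases was 0.19. Shh was at −0.14, Gli2 at 0.07 and Gli3 at 0.05 without Kat6a+/+Tg(Kat6b) replicate 1. With the length trend removed Gli2 and Gli3 were at 0.04 and 0.00, and Gli1 was still the only member past the threshold (−0.22, edgeR FDR = 0.0151), when 2.16% of all genes were. Ptch1 and Hhip, targets like Gli1, were at 0.07 and 0.21 (edgeR FDR = 0.493 and 0.392), and at 0.00 and 0.05 without that library. Markers of the neural tube (2 of 8), the somite and sclerotome (2 of 6) and the floor plate (1 of 7) passed as lower, and of the endothelium (2 of 6) as higher. Of all 15679 genes, 178 passed as lower and 357 as higher. None of the 7 notochord and 7 primitive blood markers passed, but their summed levels did not overlap, at 35.9 to 36.2 against 38.0 to 44.7 RPKM for the notochord and 5805 to 7077 against 7546 to 9432 RPKM for primitive blood. The notochord sum largely follows Sox9, with means of 16.9 against 21.0 RPKM. T was at 8.91 against 9.08 RPKM, and 2 of the 7 notochord markers had positive log2 fold changes. For the floor plate the sums were 52.2 to 58.0 against 57.8 to 64.8 RPKM. The other sums were 175 to 197 against 196 to 222 RPKM for the neural tube, 79.5 to 82.5 against 87.5 to 93.0 RPKM for the somite and sclerotome, and 81.1 to 90.2 against 74.3 to 81.7 RPKM for the endothelium. Their part in the Gli1 value was not tested.

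The interaction, the difference between the transgene's effects in Kat6a-/- and in Kat6a+/+ embryos, passed for none of the 8 genes and for 0.153% of all genes. Gli1 had the largest value, −0.26 on the log2 scale (standard error 0.0722; edgeR FDR = 0.136), and was the only member with an unadjusted p under 0.05, against 14.6% of all genes. The value was −0.28 without Kat6a+/+Tg(Kat6b) replicate 1 (edgeR FDR = 0.135). The interval for Hhip ran from 0.781-fold to 1.27-fold.

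Because the balance of activator and repressor Gli proteins sets the response to ligand, the share of each Gli gene in the summed RPKM of all Gli genes was compared. These are shares of mRNA in whole embryos and do not measure the balance of the proteins. The sum itself was 53.1 ± 2.03 RPKM in the wild type, 54.9 ± 2.15 RPKM in Kat6a-/-Kat6b+/+ embryos, 51.1 ± 3.10 RPKM with the transgene alone and 51.1 ± 0.736 RPKM with both changes (SD, n = 4 each). Gli1 made up 35.8% ± 3.74 of it in the wild type, 35.5% ± 1.42 without Kat6a, 39.5% ± 2.64 with the transgene alone and 35.2% ± 1.31 with both changes. Gli2 made up 25.5% ± 1.37, 25.3% ± 0.484, 25.3% ± 0.999 and 27.2% ± 1.42 in the same order. Gli3 made up 38.7% ± 2.38, 39.2% ± 1.15, 35.2% ± 1.92 and 37.5% ± 0.523 (SD, n = 4 each).

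Without Kat6a+/+Tg(Kat6b) replicate 1, the transgene alone had Gli1 at 38.2% ± 1.20, Gli2 at 25.6% ± 1.03 and Gli3 at 36.2% ± 0.166 (SD, n = 3 each).

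The shares were compared in 15 two-sided exact permutation tests of 4 embryos against 4, in which the smallest possible p is 0.0286. At least 9 of the 15 tests would have to reach it for any to pass after adjustment, so that the absence of a call says little. That p was reached by Gli1 (39.5% against 35.2%) and Gli3 (35.2% against 37.5%) in Kat6a+/+Tg(Kat6b) against Kat6a-/-Tg(Kat6b) embryos (exact permutation test, adjusted p = 0.214 over the 15 tests). Without Kat6a+/+Tg(Kat6b) replicate 1 the means of Kat6a-/-Tg(Kat6b) embryos minus those of Kat6a+/+Tg(Kat6b) embryos were −3.00 percentage points for Gli1 and 1.36 for Gli3. The mean of the Kat6a-/-Kat6b+/+ embryos minus that of the wild type was −0.331 percentage points for Gli1, −0.168 for Gli2 and 0.499 for Gli3, and all 3 had an adjusted p of 0.914 in the exact test.

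**Figure D4:**
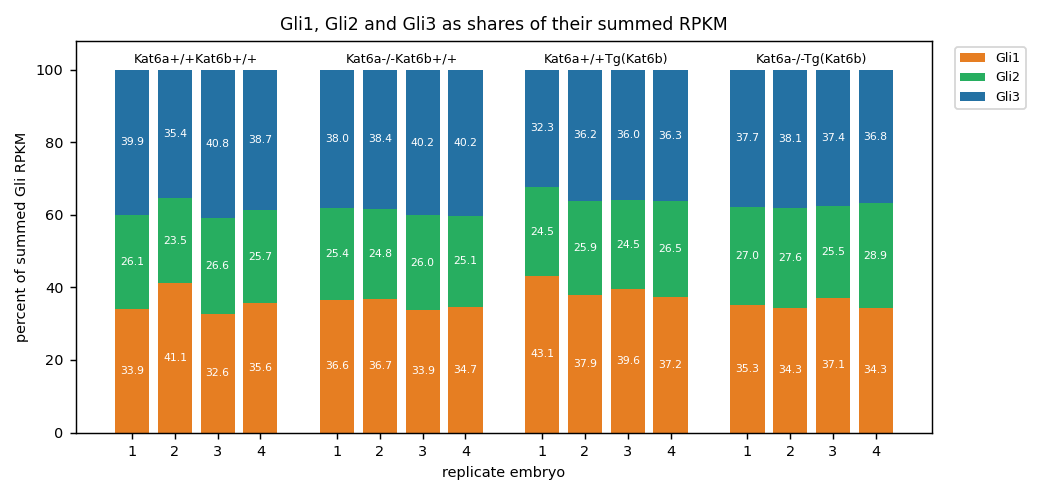
Percent of the summed RPKM of Gli1, Gli2 and Gli3 (vertical axis, stacked) held by each gene in each embryo (horizontal axis, replicates 1 to 4 of the 4 genotypes). Gli1 is highest, at 43.1%, and Gli3 lowest, at 32.3%, in Kat6a+/+Tg(Kat6b) replicate 1.

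The wider pathway was read from 75 further genes in 8 roles, all of which were tested. Of these, 6 passed in at least 1 comparison, in 12 calls of which 11 were lower. The calls repeat genes over comparisons that share embryos, so that they are not 12 separate results. The genes were listed with earlier results of these data known, so that the shares of all genes given beside them are no independent measure. The ligands Ihh and Dhh were nearly silent, at 0.248 and 0.199 RPKM on average over all 16 embryos. None of the 5 genes of ligand processing and release, the 5 other receptors and co-receptors, the 13 regulators of Gli proteins or the 14 genes of transport in the cilium passed in any comparison. Among the highest of them, the co-receptor Gas1 spanned 75.8 to 88.1 RPKM, Scube3, which helps to release the ligand, 19.0 to 25.7 RPKM, and Csnk1a1, a kinase that acts on Gli proteins, 121 to 129 RPKM over the 16 embryos. Of the transport genes, Ift52 spanned 19.0 to 21.8 RPKM. Of 13 regulators of Smo and the cilium, only Evc2, whose product works with Smo at the base of the cilium, passed.

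Between Kat6a-/-Kat6b+/+ and wild-type embryos 3 of the 75 genes passed as lower and none as higher, where 0.938% of all genes passed as lower. The median log2 fold change of the 75 was −0.01, against 0.00 for all genes. All 3 were among the 16 targets in mesoderm and other tissues, whose median was −0.19. Foxl1, a forkhead factor of gut mesenchyme, was at −0.44 (standard error 0.114; edgeR FDR = 0.0497), from 5.46 to 4.04 CPM. Foxc2, a forkhead factor of paraxial mesoderm, was at −0.28 (standard error 0.0538; edgeR FDR = 0.00850) and Mycn, which drives proliferation, at −0.26 (standard error 0.0426; edgeR FDR = 0.00192). The wild-type embryos did not overlap the mutant embryos for Foxl1 and Foxc2, as held for 7.97% of all genes. Foxl1 passed in 5, Foxc2 in 21 and Mycn in 23 of 28 alternatives. Without any surrogate variable, with sex in their place or with litter as a block, none of the 3 passed. In the neural tube, none of 7 targets passed, but 4 of 7 had an unadjusted p under 0.05 (15.2% of all genes), with log2 fold changes of the 7 from −0.44 to 0.40. Of the 7, 3 had positive log2 fold changes. The lowest was that of Nkx6-2, a homeobox factor of the ventral neural tube (standard error 0.127; edgeR FDR = 0.0838), at 5.81 to 7.74 CPM against 8.05 to 11.1 CPM in the wild type, without overlap. Foxj1 went the other way, at 7.66 to 8.26 CPM against 4.14 to 7.23 CPM in the wild type, also without overlap. Of all genes, 7.97% did not overlap. Nkx6-1 spanned 13.1 to 17.9 RPKM over the 16 embryos, and Olig2, a factor of motor neuron progenitors, 6.58 to 9.61 RPKM. Limb bud markers, 1 of 10 of which passed as lower, summed to 75.5 to 84.4 RPKM against 87.5 to 97.3 RPKM in the wild type, and floor plate markers other than Shh and Foxa2 to 52.1 to 58.2 against 60.4 to 64.4 RPKM. Of the latter, Ntn1, an axon guidance cue of the floor plate, was at −0.25 (edgeR FDR = 0.00131). Somite and sclerotome markers, 1 of 6 of which passed as lower (median −0.21), summed to 80.6 to 89.1 against 82.3 to 102.1 RPKM. Their part in the values of the targets was not tested.

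With the transgene, Ccnd2, a cyclin of the G1 phase, was lower. Its mean was 771 CPM in the wild type and 675 CPM with the transgene alone, a difference of −0.20 on the log2 scale (standard error 0.0354; edgeR FDR = 0.0268). It was the only one of the 75 to pass there, where 0.0829% of all genes passed as lower. With both changes its mean was 655 CPM, at −0.22 against the wild type (standard error 0.0368; edgeR FDR = 0.00532) and −0.27 against Kat6a-/-Kat6b+/+ embryos (standard error 0.0364; edgeR FDR = 2.35e-04). The groups did not overlap in any of the 3 comparisons, as held for 4%, 7.1% and 15.2% of all genes in the same order. Both differences of Kat6a-/-Tg(Kat6b) embryos passed in all 27 alternatives, with adjusted p of at most 0.0357 and 0.00271. The difference of Kat6a+/+Tg(Kat6b) embryos passed in 16 of 28. It did not pass with litter as a block or without Kat6a+/+Tg(Kat6b) replicate 1 (−0.15, edgeR FDR = 0.104).

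Foxc2 passed as well between Kat6a-/-Tg(Kat6b) and wild-type embryos (−0.26, edgeR FDR = 0.0346), so that 2 of 75 genes were lower and none higher, with 0.395% of all genes lower. That call was kept in 9 of 27 alternatives, with adjusted p up to 0.311. Against Kat6a-/-Kat6b+/+ embryos, where 3.74% of all genes passed as lower and 3.39% as higher, Evc2 was at −0.17 (edgeR FDR = 0.0411) and Mycn at 0.17 (edgeR FDR = 0.0248), the single call that was higher. Evc2 passed in 12 and Mycn in 21 of 27 alternatives. Mean Mycn levels were 166 CPM in the wild type, 141 CPM without Kat6a, 177 CPM with the transgene alone and 162 CPM with both changes. Against Kat6a+/+Tg(Kat6b) embryos, those with both changes had 3 of 75 genes lower, against 1.14% of all genes. Foxc2 was at −0.35 (standard error 0.0587; edgeR FDR = 0.00306), Mycn at −0.19 (edgeR FDR = 0.0278) and Nkx6-2 at −0.52 (standard error 0.137; edgeR FDR = 0.0401), with means of 7.09 against 9.80 CPM. Foxc2 passed in 22, Mycn in 15 and Nkx6-2 in 16 of 28 alternatives. None of them passed in the fit of these 8 embryos with replicate number as a block, where Foxc2 was at −0.26 (edgeR FDR = 0.163), Mycn at −0.13 (edgeR FDR = 0.194) and Nkx6-2 at −0.48 (edgeR FDR = 0.0594). Without Kat6a+/+Tg(Kat6b) replicate 1 Foxc2 passed (−0.35, edgeR FDR = 0.0126), but Mycn (−0.16, edgeR FDR = 0.130) and Nkx6-2 (−0.48, edgeR FDR = 0.167) did not. No pathway gene passed for the interaction.

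**Figure D5:**
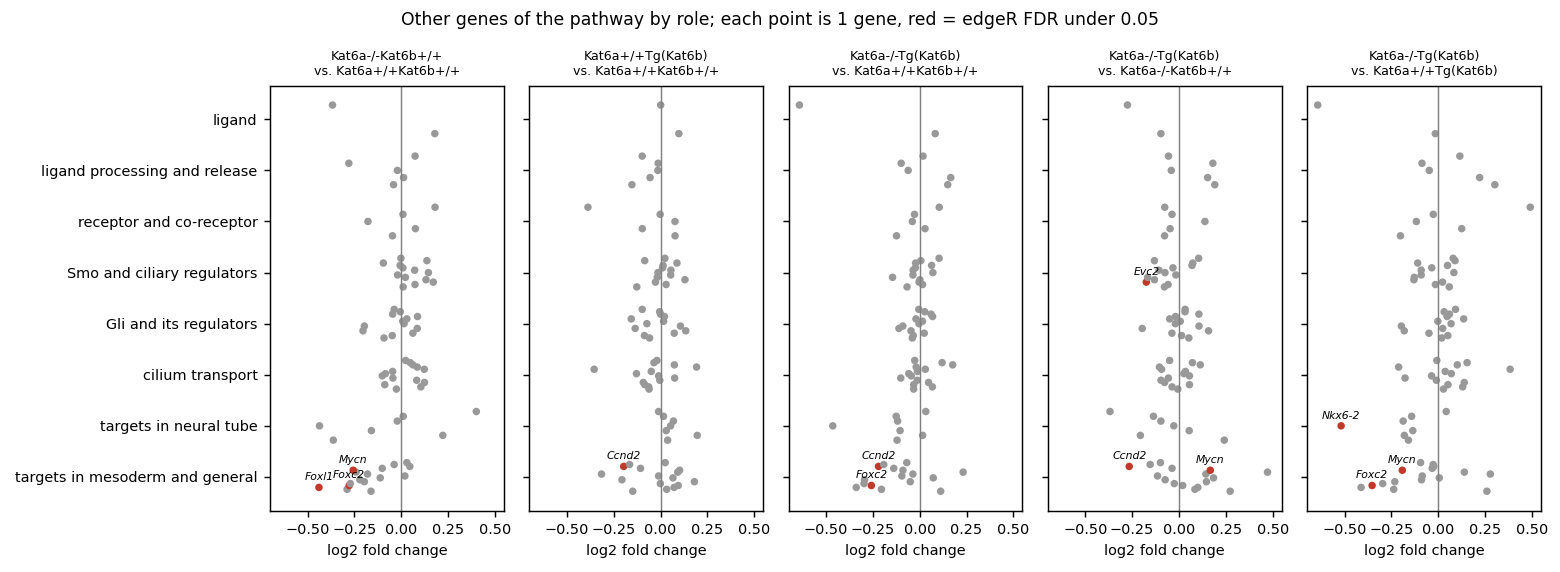
Log2 fold change (horizontal axis) of the 75 further pathway genes by role (vertical axis), 1 panel per comparison, with genes past an edgeR FDR of 0.05 in red and named. Targets hold 11 of the 12 red points, and the point of Evc2 is the other one.

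The genes whose levels moved most like each member across embryos were found by Pearson's r of log2 CPM over the 16 embryos after the mean of each genotype had been subtracted. They are given as a description with no test, since each was the highest of all expressed genes and all points share library and length effects. For Gli3 they were Mga and Med13 (r = 0.962 for both), for Gli2 Cald1 (0.962) and Aff4 (0.945), and for Hhip Bltp3a (0.940) and Pacs2 (0.927). For Foxa2 they were Egfl7 (0.905) and Tradd (0.891), for Gli1 Acad8 (0.901) and Zfyve27 (0.887), and for Smo Zbtb16 (0.882) and Atp13a2 (0.873). For Ptch1 they were Bms1 (0.854) and Rhbdf2 (0.844), and for Shh Syngr3 (0.853) and Parp16 (0.827). No member was among the 2 genes most like another member.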

How the data were processed

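RNA of 16 whole E9.5 embryos had been sequenced by the authors with the TruSeq kit (paired-end reads), aligned to mm39 with Rsubread and, per the labels, counted with featureCounts. The deposited values are counts per gene without normalization, and the annotation and strand setting are not given in the sources used here. Genes were kept by filterByExpr (minimum count 10, minimum total 15), which left 15679. edgeR 4.0.16 in R 4.3.3 fitted a robust quasi-likelihood model with TMM factors (0.985 to 1.02) and 2 surrogate variables from sva 3.50.0. Alternatives used DESeq2 1.42.0, limma 3.58.1 and other settings. No 2 libraries of 1 genotype agreed within sampling noise (chi-square per degree of freedom at least 1.81), and all were kept as replicates. The scripts were tested on simulated data. With 14407277 to 45665680 counts per embryo, the lowest member count was 138.

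Genes named were the 8 members, pathway genes past the threshold, the highest others of a role and, per member, the 2 most like it. The members and lists were chosen with earlier results of these data known. Embryos are separate animals. No label ties same-numbered embryos, but their deviations from the genotype means correlated over 0.1 in 4 of 4 pairs (0.109 to 0.336) between Kat6a+/+Tg(Kat6b) and Kat6a-/-Tg(Kat6b), so that a fit of these 8 embryos with replicate number as a block was added after seeing the data. The sexes match in all 4 numbers only in that comparison. Correlations over 0.1 in the others were all between embryos of the same sex.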

Additional observations from a re-analysis of the deposited data

Results flagged for a closer look

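In 44 groups of 4 embryos (RPKM of the 8 members and the 3 Gli shares, in each of 4 genotypes), 1 value stood apart from the rest of its group. The share of Gli3 in the summed Gli RPKM was 32.3% in Kat6a+/+Tg(Kat6b) replicate 1, while the other embryos of that genotype were at 36.0% to 36.3%. The gap to the nearest embryo was 0.921 of the whole range, above the 95% critical value of Dixon's test, which chance exceeds in about 1 in 20 groups. In the same library, set against the other embryos of its genotype, genes longer than 8000 bases lay at −0.41 on the log2 scale relative to genes under 2000 bases. Gli3 is 8427 bases long. Whether that trend sets the share was not tested.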

How the results depend on the processing

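Of the 48 log2 fold changes of the members, 33 kept their sign in every alternative, and 32 of 1312 alternative values had the other sign. The count of members past the threshold in Kat6a-/-Tg(Kat6b) vs. Kat6a+/+Tg(Kat6b), 1, became 0 with no or 1 surrogate variable, sex in their place, at least 10 counts in every embryo, a replicate block, a fit of only the 2 genotypes, or both of these together, the last added after the data were seen. In Kat6a-/-Tg(Kat6b) vs. Kat6a-/-Kat6b+/+ the count of 0 became 4 with the length trend removed, 2 with at least 10 counts or with only the 2 genotypes, and 1 (Hhip) with the replicate block. In Kat6a+/+Tg(Kat6b) vs. wild type it became 1 with DESeq2. Leaving out 1 embryo gave 0 to 1 and 0 to 2 members in the first pair, the 2 being without Kat6a+/+Tg(Kat6b) replicate 1. The cause of these changes was not tested. Same-numbered embryos had correlations over 0.1 in 4 of 4 pairs of the first comparison, Kat6a-/-Tg(Kat6b) vs. Kat6a+/+Tg(Kat6b), but in at most 2 of 4 in each other comparison. Every pair over 0.1 held embryos of the same sex, so that the block is no known pairing. Over all genes the block in those 8 embryos left 218 calls of 535.

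Of the other pathway genes, the 3 past the threshold in Kat6a-/-Kat6b+/+ vs. wild type became 0 with no surrogate variable, sex, replicate block, litter block or only the 2 genotypes, 1 with 1 surrogate variable, 7 with the length trend removed and 6 with at least 10 counts. The 1 in Kat6a+/+Tg(Kat6b) vs. wild type became 0 with no or 1 surrogate variable, sex, either block or only the 2 genotypes. The 2 in Kat6a-/-Tg(Kat6b) vs. wild type became 1 with no or 1 surrogate variable, sex, no filter, replicate block or only the 2 genotypes. The 3 in Kat6a-/-Tg(Kat6b) vs. Kat6a-/-Kat6b+/+ became 6 with the length trend removed or at least 10 counts and 5 with only the 2 genotypes. The 3 in Kat6a-/-Tg(Kat6b) vs. Kat6a+/+Tg(Kat6b) became 1 with no or 1 surrogate variable, sex or only the 2 genotypes, and 1 (Lrp2, not among the 3) with only the 2 genotypes and the replicate block. Without 1 embryo the 5 counts spanned 2 to 8, 0 to 1, 1 to 3, 1 to 6 and 1 to 4. Over all genes, DESeq2 called 219 against 22 by edgeR in Kat6a+/+Tg(Kat6b) vs. wild type. In Kat6a-/-Kat6b+/+ vs. wild type, 95 genes were called with no surrogate variable, against 295 with 2.

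None of the results that changed sign had passed the threshold. With litter as a block Gli1 was at −0.065 in Kat6a-/-Kat6b+/+ vs. wild type and Smo at 0.0091 in Kat6a+/+Tg(Kat6b) vs. wild type. With at least 10 counts Foxa2 was at 0.0031 in Kat6a-/-Tg(Kat6b) vs. wild type, Gli2 at −0.0042 vs. Kat6a-/-Kat6b+/+ and the Ptch1 interaction at −0.0069. With the length trend removed Gli2 was at −0.00078 in Kat6a-/-Tg(Kat6b) vs. Kat6a-/-Kat6b+/+, Ptch1 at −0.058 vs. Kat6a+/+Tg(Kat6b), and the interactions of Ptch1 and Gli3 at −0.090 and −0.052. With limma-voom the Hhip interaction was at 0.027. Of the Gli shares, with the length trend removed Gli1 differed by 0.0445 points in Kat6a-/-Kat6b+/+ and Gli2 by 0.0247 in Kat6a+/+Tg(Kat6b) vs. wild type, the latter by 0.600 as shares of counts. Without 1 embryo, Foxa2 spanned −0.061 to 0.17 in Kat6a-/-Kat6b+/+, −0.057 to 0.16 in Kat6a+/+Tg(Kat6b) and −0.23 to 0.062 in Kat6a-/-Tg(Kat6b) vs. wild type, and −0.18 to 0.042 between the last 2. Gli2 spanned −0.0019 to 0.066 in Kat6a-/-Kat6b+/+ vs. wild type and −0.0034 to 0.063 in Kat6a-/-Tg(Kat6b) vs. Kat6a-/-Kat6b+/+. Ptch1 spanned −0.0051 to 0.076 and Smo −0.046 to 0.0056 in Kat6a-/-Kat6b+/+ vs. wild type, and Smo −0.069 to 0.038 in Kat6a+/+Tg(Kat6b) vs. wild type and −0.021 to 0.093 in Kat6a-/-Tg(Kat6b) vs. Kat6a+/+Tg(Kat6b). The interactions spanned −0.016 to 0.14 for Gli3, −0.16 to 0.098 for Hhip and −0.033 to 0.071 for Ptch1. Gli shares, in points, spanned −1.40 to 1.44 (Gli1), −0.825 to 0.210 (Gli2) and −0.614 to 1.19 (Gli3) in Kat6a-/-Kat6b+/+ vs. wild type. They spanned −0.814 to 0.221 for Gli2 in Kat6a+/+Tg(Kat6b) vs. wild type, and for Gli1 −1.64 to 1.20 in Kat6a-/-Tg(Kat6b) vs. wild type and −0.856 to 0.180 vs. Kat6a-/-Kat6b+/+. The fewest counts per embryo were 187 for Hhip and 138 for Foxa2.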
